A study of Mus musculus with 3 samples.

Results

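The Notch pathway genes described here were a listed set of 10 of the 21851 protein-coding genes placed on GRCm38: the receptors Notch1, Notch2 and Notch3, the ligands Jag1, Jag2 and Dll1, the nuclear complex genes Rbpj and Maml1, and the target genes Hes1 and Hey1. The genes were listed by name. For each gene and library, the peaks were counted from 20 kb before the outer start of the gene model to the gene end. Omni-ATAC-seq marks open chromatin with adapters that a transposase inserts into accessible DNA. The cells were hair follicle stem cells (HFSCs) sorted from dorsal skin as CD34-positive, CD49f-positive and Sca-1-negative cells, in 3 libraries. Msx2-WT replicate 1 came from C57BL/6J mice matched for the stage of the hair cycle. Msx2-KO replicates 1 and 2 came from mice homozygous for a germline pMC1-neo insertion in Msx2, a homeobox gene for a transcription factor. Mice of both genotypes were untreated, 6 months old and in telogen, when hair follicles rest. Being germline, the insertion was also present in the cells around the HFSCs. Groups follow the labels, which give a knockout, although the 2 Msx2-KO peak lists name their peaks with cKO and the first of them uses a different library number.

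In Notch signalling, a ligand on one cell binds a receptor on its neighbour, and proteases then cut the receptor and free its intracellular part. This part enters the nucleus, joins the DNA-binding protein RBPJ and a Mastermind protein, and turns on target genes such as those of the Hes and Hey families. Without it, RBPJ binds corepressors. In skin, the pathway is known for its part in the differentiation of the interfollicular epidermis and in the maintenance of hair follicle fates.

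The comparison asks how the open chromatin at these genes stood with and without Msx2. Because Msx2-WT had 1 library, the genotypes were compared without a test, and the only spread between replicates was that between the Msx2-KO libraries, for which the labels do not say whether they came from separate mice. The labels give the Msx2-WT library another batch than the Msx2-KO libraries, which share one, and the effects of genotype and batch cannot be told apart. A peak was kept past a −log10 q of 2, which left 29817 peaks in Msx2-WT and 18518 and 37012 in the Msx2-KO replicates. In place of depth, which the lists do not give, stands the commonest local background, 1.74, 0.476 and 0.790 tags per counting window in the same order, so that of Msx2-WT was higher than that of Msx2-KO replicate 1 by a factor of 3.65. The weakest peaks kept had 9, 5 and 6 tags, or 5.18, 10.5 and 7.59 times the background. Of 11 HFSC marker genes, 8, 8 and 10 had a promoter peak. Promoter peaks were found for none of 5 leukocyte genes in any library, for 2, 1 and 3 of 5 fibroblast genes and for 2 of 5 melanocyte genes in each library. For Pmel, 1 of these 2 melanocyte genes, the summits lay at −1152, −1227 and −1180 bases from its start. Whether this peak belongs to Pmel was not tested. Of 5 suprabasal epidermis genes, Krt10 and Ivl had a promoter peak in Msx2-WT alone, and Msx2-KO replicate 2 listed both below the threshold.

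The 10 windows spanned 743.5 kb and held 29 Msx2-WT peaks, against 16 and 31 for Msx2-KO replicates 1 and 2. Per 100 kb this was 3.90, 2.15 and 4.17 peaks, beside 1.97, 1.22 and 2.25 over the windows of all protein-coding genes. The Notch pathway genes were thus more densely covered than the pool of all genes in every library. The Msx2-WT count lay between the counts of the Msx2-KO libraries, but this order did not hold under other settings. With the libraries thinned to the background of Msx2-KO replicate 1, the counts were 13, 16 and 27, with Msx2-WT lowest. When each list was limited to the length of the shortest, the counts became 20, 16 and 19, with Msx2-WT highest. In sorted cells measured as a bulk, fewer cells with a region open and less opening per cell cannot be told apart.

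**Figure D1:**
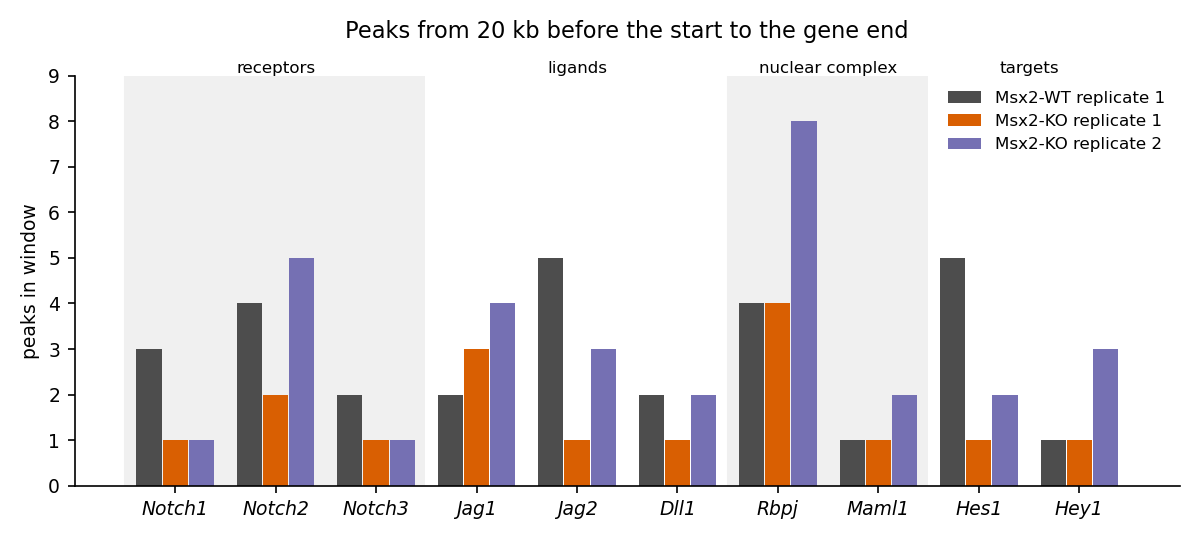
Peaks in each gene's window, from 20 kb before the start to the gene end; bars give the number of peaks in each of the 3 libraries, and shading groups the genes by role. Notch1, Notch3, Jag2 and Hes1 had the most peaks in Msx2-WT, whereas Jag1 had more in both Msx2-KO libraries, with 3 and 4 against 2, and Rbpj reached 8 in Msx2-KO replicate 2.

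By role, the target genes had the highest density, with 12.7 peaks per 100 kb in Msx2-WT and 4.23 and 10.6 in the Msx2-KO replicates. Their windows were short, 47.3 kb together, so this rested on 6, 2 and 5 peaks. The ligands followed with 7.11, 3.95 and 7.11 peaks per 100 kb from 9, 5 and 9 peaks. The receptors had 2.98, 1.33 and 2.32 from 9, 4 and 7 peaks, and the nuclear complex genes had 1.87, 1.87 and 3.73 from 5, 5 and 10 peaks. In each library the targets came first and the ligands second. Receptors and targets had fewer peaks in both Msx2-KO libraries than in Msx2-WT, and no role had more in both. With the libraries thinned to the background of Msx2-KO replicate 1 this turned. The receptors then had 3 peaks in Msx2-WT against 4 and 5 in the Msx2-KO replicates, the nuclear complex genes 3 against 5 and 9, the targets 2 against 2 and 4, and the ligands 5 against 5 and 9.

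**Figure D2:**
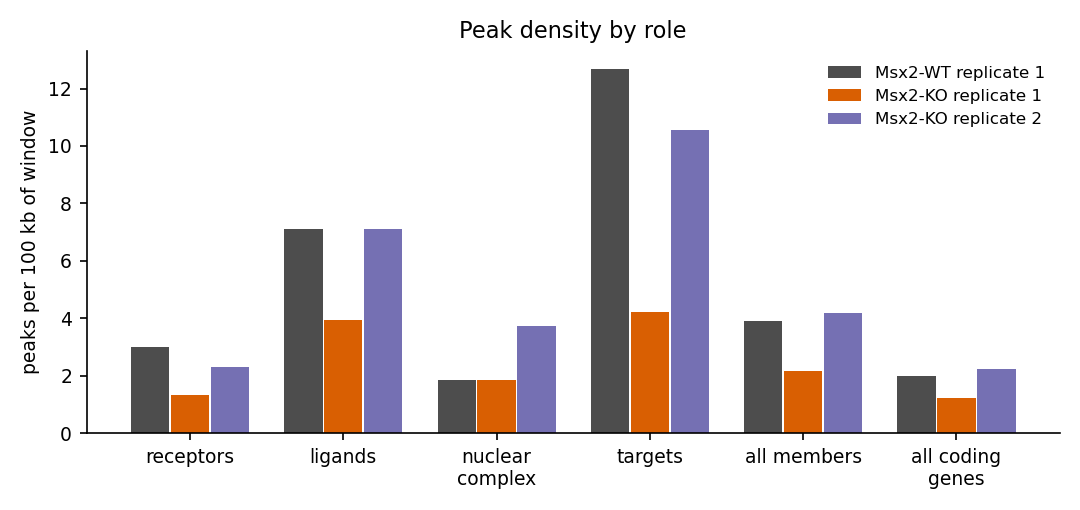
Peaks per 100 kb of window for each role, for all 10 Notch pathway genes together and for all protein-coding genes; bars give the 3 libraries. The 2 target genes and the 3 ligands stand above the pool of all genes in each library, and Msx2-KO replicate 1, the library with the lowest background, has the lowest or an equal bar in each role.

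A promoter peak, with its summit within 1500 bases of a coding start site, was found for 8 of the 10 genes in the Msx2-WT library, and for 6 and 7 in Msx2-KO replicates 1 and 2. Over all protein-coding genes these shares were 47.1%, 37.9% and 53.7%. Notch2, Jag1, Jag2, Rbpj, Maml1 and Hey1 had one in all 3 libraries, 6 of 10 beside 35.2% of all genes. Notch1 had one in Msx2-WT alone, beside 2.11% of all genes, Hes1 lacked one in Msx2-KO replicate 1 only, and Notch3 and Dll1 had none. These calls moved with the background: with Msx2-WT thinned to that of Msx2-KO replicate 1, its 8 genes became 3, namely Jag1, Rbpj and Hey1, and Notch1 then had no promoter peak in any library.

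Among promoters with a peak in all 3 libraries, the tags at the strongest summit were divided by the background of the library and compared with Msx2-WT. Over all 7701 such promoters the median ratio to Msx2-WT was 1.83 for replicate 1 of Msx2-KO and 2.29 for replicate 2, and each ratio given below was divided by this median. Of the 6 Notch pathway promoters, Jag1 was past 2-fold higher in both Msx2-KO libraries, beside 2.42% of all 7701. None was past 2-fold lower in both, beside 3.06%. Promoters not called in a Msx2-KO library were left out of this count, which limits what it says of lower promoters. Among those left out, Notch1 had ratios of 0.435 and 0.292 and Hes1 of 0.424 and 0.756, with entries below the threshold. The medians of the 6 ratios were 1.18 and 1.28, where all promoters have 1 by construction. The Rbpj ratios among them compare summits at different positions. Intervals for tags and ratios are 95% exact intervals that cover counting error only, and duplicate reads had been kept by the authors.

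**Figure D3:**
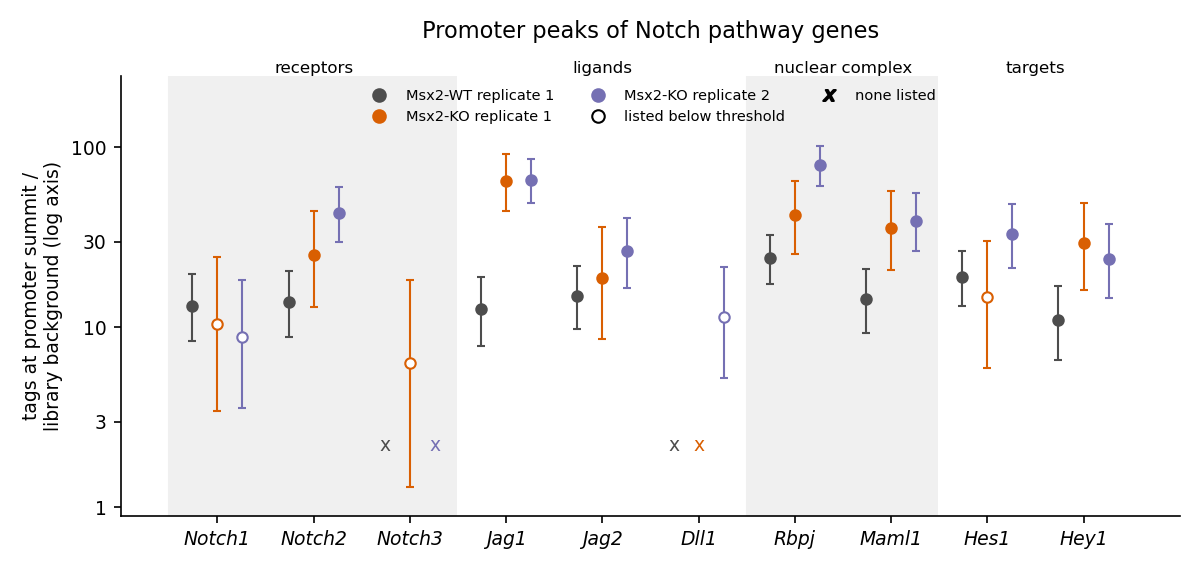
Tags at the strongest promoter summit over the background of the library, on a log axis, with 95% Poisson intervals; filled points passed the threshold, open points were listed below it, and a cross marks a library with no promoter peak listed. These levels are shown before division by the medians of 1.83 and 2.29. The Msx2-KO points of Jag1, at 65.1 and 65.8, stand farthest above their Msx2-WT point, at 12.7, and Notch3 and Dll1 have no filled point.

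Notch1 (ENSMUSG00000026923.15, minus strand, chr2:26457903-26516663) encodes a receptor that is widely studied in epidermal differentiation. Its window held 3 peaks in Msx2-WT and 1 in each Msx2-KO library. At the promoter, Msx2-WT had 23 tags (95% Poisson interval 14.6 to 34.5) with the summit 48 bases before the coding start, or 13.2 times the background. The Msx2-KO libraries had 5 and 7 tags at their strongest promoter entries, 10.5 and 8.86 times their backgrounds, both listed below the threshold. The summits of these entries lay 126 bases before and 330 bases after the start, the second outside the Msx2-WT peak. After division by the medians, the ratios to Msx2-WT were 0.435 (0.129 to 1.17) and 0.292 (0.106 to 0.703), the second between different positions. The promoter was thus called in Msx2-WT alone and was listed, at a lower level, in both Msx2-KO libraries. A second region called in Msx2-WT alone (chr2:26507457-26507960) lay 3851 bases before the same start, within an intron of a longer Notch1 transcript, and had 26 tags against 4 and 7 below the threshold, with ratios of 0.277 and 0.257. An intron 2 peak (chr2:26497894-26498587) was shared by Msx2-WT, with 20 tags, and Msx2-KO replicate 1, with 6. Another intron 2 peak (chr2:26500274-26501230) was found in Msx2-KO replicate 2 alone, with 14 tags.

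Notch2 (ENSMUSG00000027878.11, plus strand, chr3:98013527-98150361) encodes a second receptor of the family. Its window held 4 Msx2-WT peaks, and 2 and 5 in the Msx2-KO replicates. Its promoter peak was found in every library, with 24, 12 and 34 tags, and the ratios to Msx2-WT were 1.00 (0.456 to 2.08) and 1.36 (0.783 to 2.40). Its shared distal region lay in intron 6 (chr3:98098420-98099702), 85.3 kb into the gene. It had 41, 25 and 28 tags, or 23.6, 52.5 and 35.4 times the background, and its −log10 q, at least 18.5, was above that of every other region of the 10 genes outside promoters in each library. By tags it stood second in Msx2-KO replicate 2, after a region of Jag1 with 30. Relative to the median of the 6215 distal regions shared by all 3 libraries, its ratios to Msx2-WT were 1.10 and 0.652. Its other 5 regions were each called in a single library. In intron 1, Msx2-WT alone had a peak with 22 tags (chr3:98020501-98021486) at a summit where neither Msx2-KO list held any entry, not even below the threshold. Msx2-KO replicate 2 alone had 3 other intron 1 peaks, with 14, 7 and 17 tags. Below the threshold, Msx2-KO replicate 1 listed 4 tags at the one with 14, and Msx2-WT listed 8 at the one with 7. A weak peak 14.8 kb before the start (chr3:97998449-97998891), with 10 tags or 5.75 times the background, was again called in Msx2-WT alone. Msx2-KO replicate 2 listed 4 tags there below the threshold, or 5.06 times its background.

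Notch3 (ENSMUSG00000038146.8, minus strand, chr17:32120820-32166852) encodes a receptor best known from vascular smooth muscle. It had no promoter peak in any library, and a single entry of 3 tags below the threshold in Msx2-KO replicate 1. Its one shared region lay in intron 2 (chr17:32162012-32163000), 4420 bases after the start, with 26, 6 and 17 tags and ratios to Msx2-WT of 0.415 (0.140 to 1.03) and 0.624 (0.318 to 1.19). A region over coding exon 24 (chr17:32143285-32143671) was called in Msx2-WT alone, with 10 tags or 5.75 times the background. Msx2-KO replicate 2 listed 4 tags there below the threshold, or 5.06 times its background. Of the 3 receptors, Notch3 was therefore the one with peaks called within its gene body and none called at its start in any library. In the Msx2-KO libraries alone, Notch1 had the same pattern.

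Sequences are given for 4 regions whose calls differed between genotypes or whose level did, on the strand of the gene from GRCm38. Capitals mark the 11 bases centred on the summit, in Msx2-WT for the promoters and in the library with the largest −log10 q for the introns. They are the Notch1 promoter up to the base before the coding start, the Notch2 intron 1 region of Msx2-WT alone, the Jag1 promoter and the Jag1 intron 2 region of both Msx2-KO libraries.
Notch1 promoter, chr2:26503823-26503970, minus strand: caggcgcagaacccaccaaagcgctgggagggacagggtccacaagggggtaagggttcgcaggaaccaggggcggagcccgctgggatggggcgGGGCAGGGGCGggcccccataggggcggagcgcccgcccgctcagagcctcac
Notch2 intron 1, chr3:98020653-98020853, plus strand: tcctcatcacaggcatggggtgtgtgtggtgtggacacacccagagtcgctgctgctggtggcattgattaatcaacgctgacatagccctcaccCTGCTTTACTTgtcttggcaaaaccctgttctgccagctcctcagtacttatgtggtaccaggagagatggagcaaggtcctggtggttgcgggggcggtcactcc
Jag1 promoter, chr2:137116701-137116901, minus strand: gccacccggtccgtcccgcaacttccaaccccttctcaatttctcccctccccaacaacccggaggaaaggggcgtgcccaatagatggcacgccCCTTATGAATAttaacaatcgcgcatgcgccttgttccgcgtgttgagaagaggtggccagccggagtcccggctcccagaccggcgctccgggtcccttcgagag
Jag1 intron 2, chr2:137114292-137114492, minus strand: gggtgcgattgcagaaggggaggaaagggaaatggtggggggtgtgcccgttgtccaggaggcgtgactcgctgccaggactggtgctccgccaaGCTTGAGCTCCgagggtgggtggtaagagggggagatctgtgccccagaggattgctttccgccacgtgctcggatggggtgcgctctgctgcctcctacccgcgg
The G+C content of these stretches was 73.6%, 55.7%, 62.2% and 65.2%, in the order given.

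Jag1 (ENSMUSG00000027276.7, minus strand, chr2:137081456-137116644) encodes a ligand of the Jagged type. At the threshold used, it was the one gene of the 10 with more peaks in both Msx2-KO libraries than in Msx2-WT, with 2 peaks against 3 and 4. This did not hold under other settings. At a −log10 q minimum of 5, Jag1 had 2, 1 and 3 peaks, and with every deposited peak 5, 4 and 7. With the libraries thinned to the background of Msx2-KO replicate 1, Jag1 kept 2, 3 and 4, but Notch2, Rbpj and Maml1 also had more in both Msx2-KO libraries. Its promoter peak had 22 tags (13.8 to 33.3) in Msx2-WT, compared with 31 (21.1 to 44.0) and 52 (38.8 to 68.2) in the Msx2-KO replicates. The Msx2-WT level, 12.7 times the background, ranked above 44.7% of the promoter peaks of its library, and the Msx2-KO levels, 65.1 and 65.8, ranked above 89.3% and 90.3% of theirs. The ratios to Msx2-WT were 2.82 (1.58 to 5.11) and 2.27 (1.35 to 3.92), and the ratio between the Msx2-KO libraries was 0.805. By the fold over the local background that the authors deposited, the ratios were 1.80 and 1.52, neither past 2-fold. The summits stood 157, 291 and 461 bases before the start in the same library order.

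Jag1 also held the strongest of the 3 regions that both Msx2-KO libraries had and Msx2-WT lacked, in intron 2 (chr2:137113937-137114946), 2252 bases after the start. The tag numbers were 16 for replicate 1 and 30 for replicate 2 of Msx2-KO, or 33.6 and 38.0 times the background. Msx2-WT listed 14 tags there, 8.05 times its background, with a −log10 q of 0.467, below the threshold. The region was thus listed in Msx2-WT but not called, and its ratios to Msx2-WT were 2.06 (0.941 to 4.55) and 2.05 (1.05 to 4.17). The shared region in intron 5 (chr2:137098032-137098985) had 39, 8 and 22 tags. Its ratios to Msx2-WT were 0.369 (0.149 to 0.802) and 0.538 (0.304 to 0.931), so within one gene the promoter stood higher and intron 5 lower in both Msx2-KO libraries, although the intron was past 2-fold in replicate 1 only. A peak elsewhere in intron 2, with 9 tags, was found in Msx2-KO replicate 2 alone.

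Jag2 (ENSMUSG00000002799.6, minus strand, chr12:112907819-112929776) encodes the other Jagged ligand. Msx2-WT had 5 peaks there, against 1 and 3 for the Msx2-KO replicates. At the promoter the libraries had 26, 9 and 21 tags, and the ratios to Msx2-WT were 0.692 (0.285 to 1.52) and 0.775 (0.415 to 1.43), both with 1 inside the interval. A second promoter peak 1261 bases after the start was shared by Msx2-WT, with 19 tags, and Msx2-KO replicate 2, with 13. An upstream peak that lies in the promoter of Nudt14 (chr12:112941051-112942371), a neighbouring gene for a nucleoside diphosphate-linked hydrolase, had 21 tags in Msx2-WT and 12 in Msx2-KO replicate 2. The 2 regions of Msx2-WT alone, in intron 2 with 18 tags (chr12:112927021-112927695) and 17.8 kb before the start with 10 tags (chr12:112947464-112947673), had no entry in either Msx2-KO list.

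Dll1 (ENSMUSG00000014773.13, minus strand, chr17:15367354-15376872) encodes a ligand of the Delta type. Its window held 2, 1 and 2 peaks, none of them at its promoter, where Msx2-KO replicate 2 alone listed 9 tags below the threshold. The nearer region (chr17:15379847-15381390), 4498 bases before the coding start, had 40 tags in Msx2-WT and 25 in Msx2-KO replicate 2, while Msx2-KO replicate 1 listed 5 below the threshold. Relative to the median of shared distal regions, its ratios to Msx2-WT were 0.225 (0.0693 to 0.570) and 0.597 (0.347 to 1.01). The summit of replicate 1, at chr17:15381016, lay past the end of the Msx2-WT peak at 15381003, so the first ratio compares different positions. The farther region, found in all 3 libraries, lay in the promoter of Fam120b and cannot be assigned to Dll1.

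Rbpj (ENSMUSG00000039191.12, plus strand, chr5:53466152-53657362) encodes the DNA-binding protein of the pathway. Its gene model has the longest window, 211 kb, since its longest transcript starts far before the others. It had 4, 4 and 8 peaks. The promoter region (chr5:53589077-53590918) had the highest level of the 10 genes in Msx2-WT, and again in replicate 2 of Msx2-KO, with 42, 20 and 63 tags or 24.2, 42.0 and 79.7 times the background. The ratios to Msx2-WT were 0.952 (0.530 to 1.66) and 1.44 (0.959 to 2.18), both between different positions. In Msx2-WT this region was split into 2 peaks, and the stronger summit stood 814 bases before the nearest start. In the Msx2-KO libraries it was a single peak, 1774 and 1799 bases wide, with summits 84 bases after and 74 bases before the nearest start. Both of these summits lay outside the stronger Msx2-WT peak (chr5:53589206-53589766), whose tags the ratios use.

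The first intron of the longest Rbpj transcript held the other 2 regions of both Msx2-KO libraries that were not called in Msx2-WT. One (chr5:53517620-53518377) had 5 and 7 tags and no entry in Msx2-WT. The other (chr5:53522779-53523682) had 5 and 13 tags, beside 6 tags below the threshold in Msx2-WT, and the counting intervals of its ratios to Msx2-WT, 0.362 to 5.90 and 0.733 to 6.64, both held 1. Its summit in replicate 1 lay outside the Msx2-WT entry. In replicate 1 both regions thus had 5 tags, the lowest number of any peak kept in that library. A stronger region in the same intron (chr5:53469264-53470507) was shared, with 20, 24 and 25 tags. Its ratios to Msx2-WT were 2.16 (1.14 to 4.12) and 1.19 (0.636 to 2.27), past 2-fold in one Msx2-KO library and not in the other. Msx2-KO replicate 2 alone had 3 more peaks in this intron, with 7 to 11 tags. At the one with 11, Msx2-WT listed 7 tags below the threshold. When the window began 20 kb before the outermost basic coding start instead, Rbpj had 2, 1 and 2 peaks.

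Maml1 (ENSMUSG00000050567.16, minus strand, chr11:50255634-50292311) encodes a Mastermind coactivator. Its promoter was its only shared region, with 25, 17 and 31 tags and ratios to Msx2-WT of 1.36 (0.689 to 2.62) and 1.19 (0.680 to 2.10). The single other peak, over the 3' UTR, had 6 tags in Msx2-KO replicate 2.

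Hes1 (ENSMUSG00000022528.8, plus strand, chr16:30064384-30067796) encodes a basic helix-loop-helix repressor and is the textbook Notch target. The Msx2-WT library had 5 peaks there, against 1 for replicate 1 and 2 for replicate 2 of Msx2-KO, or 21.4, 4.27 and 8.54 per 100 kb. The Msx2-WT density was above that of 99.9% of protein-coding genes. With Msx2-WT thinned to the background of Msx2-KO replicate 1, however, its 5 peaks became 1, as did the 5 of Jag2 and the 3 of Notch1, while the 2 of Jag1 were kept. Its promoter had 33 tags in Msx2-WT and 26 in Msx2-KO replicate 2, while Msx2-KO replicate 1 listed 7 below the threshold. The ratios to Msx2-WT were 0.424 (0.158 to 0.975) and 0.756 (0.434 to 1.30), so the Msx2-KO library in which the promoter was not called also had the lower ratio. In Msx2-WT this region held 2 peaks, and in Msx2-KO replicate 2 a single peak of 1994 bases.

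The region upstream of Hes1 that all 3 libraries shared (chr16:30047358-30048032) stood 17.6 kb before the coding start. It had 22, 7 and 16 tags, with ratios to Msx2-WT of 0.573 (0.207 to 1.39) and 0.694 (0.341 to 1.38). Between it and the promoter, Msx2-WT alone had 2 peaks, with 15 tags 8197 bases before the coding start (chr16:30057053-30057244) and 21 tags 4797 bases before it (chr16:30060420-30060686). Neither had an entry in a Msx2-KO list. Both were narrow, 192 and 267 bases, beside a median of 428 bases for the 5743 regions of Msx2-WT alone in the windows of all genes and an extension size of 200 bases in the peak calling. The part of this narrow shape in the count of Hes1 was not tested.

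Hey1 (ENSMUSG00000040289.8, minus strand, chr3:8663359-8667256) encodes a related repressor of the Hey family. Its promoter peak was found in all 3 libraries with 19, 14 and 19 tags, and the ratios to Msx2-WT were 1.47 (0.684 to 3.10) and 0.960 (0.481 to 1.92). Msx2-KO replicate 2 alone had 2 more peaks, over a coding part of exon 5 with 10 tags and 18.2 kb before the start with 6 tags. At the threshold used, the target genes thus differed: Hes1 had most of its peaks in Msx2-WT, and Hey1 in Msx2-KO replicate 2. This contrast did not hold under other settings. With the libraries thinned to the background of Msx2-KO replicate 1, both genes had 1, 1 and 2 peaks. In lists of equal length Hes1 had 2, 1 and 2 peaks, and Hey1 had 1 in each library.

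Across the 10 windows, merging peaks with at least 1 shared base gave 41 regions. Of these, 12 were found in all 3 libraries, or 29.3% beside 32.0% of regions in the windows of all genes. Regions that both Msx2-KO libraries had and Msx2-WT lacked numbered 3, or 7.32% beside 6.69%, and 9 were in Msx2-WT alone, or 22.0% beside 17.6%. Msx2-KO replicate 2 alone held 11, or 26.8% beside 25.3%, and Msx2-KO replicate 1 alone none beside 2.15%. Msx2-WT shared 5 with Msx2-KO replicate 2 only, or 12.2% beside 15.5%, and 1 with Msx2-KO replicate 1 only, or 2.44% beside 0.678%. By gene, 2 of the 10 had at least 1 region of both Msx2-KO libraries alone, Jag1 and Rbpj, beside 9.08% of all genes. At least 1 region of Msx2-WT alone was found at 5 of the 10, Notch1, Notch2, Notch3, Jag2 and Hes1, beside 22.4%. These shares take no account of the higher peak density in the 10 windows. Of the 9 regions of Msx2-WT alone, 4 had an entry below the threshold in at least 1 Msx2-KO list and 5 had none. Under thinning to the lowest background, 6 regions fell to both Msx2-KO libraries and 2 to Msx2-WT alone. The share over all regions is not given for this setting. Over the promoters of all protein-coding genes, the state of both Msx2-KO and not Msx2-WT rose from 2.32% to 10.6% of genes under thinning. That of Msx2-WT alone fell from 2.11% to 1.39%. Thinning matches the commonest background and not the number of reads, and shared promoters stood higher over this background in the Msx2-KO libraries, by the medians of 1.83 and 2.29 given above. Of the suprabasal epidermis genes, 2 of 5 had a promoter peak in Msx2-WT, Krt10 at 5.75 and Ivl at 8.63 times the background, 14.4 summed. None of the 5 had one in either Msx2-KO library, and Krt1, Lor and Flg had none anywhere. Msx2-KO replicate 2 listed Krt10 and Ivl below the threshold, however, each with 5 tags or 6.33 times its background. The part of such cells in the regions of Msx2-WT alone was not tested.

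**Figure D4:**
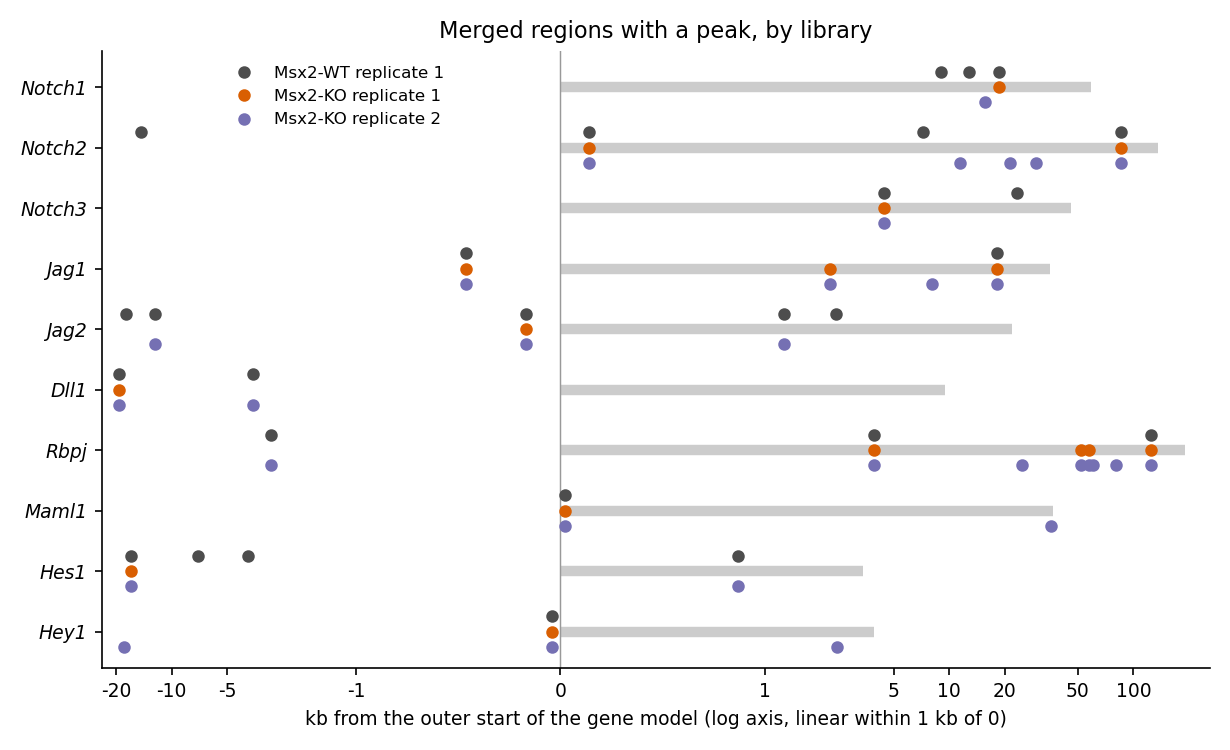
Position of each merged region, as the distance of its strongest summit from the outer start of the gene model in kb, on an axis that is linear within 1 kb of the start and logarithmic beyond; grey bars are gene bodies, and a point shows that the library had a peak. All 12 regions with 3 stacked points are seen, among them promoters of 6 genes, and the isolated Msx2-KO replicate 2 points lie mainly in the introns of Notch2 and Rbpj.

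By position, 9 of the 41 regions lay at the gene's own promoter, 2 at the promoter of another gene, 8 elsewhere upstream, 19 in introns and 3 in exons. Of the 9 own promoter regions 6 were shared by all 3 libraries, against 4 of 19 in introns and 1 of 8 upstream. Promoter peaks were often shared over all protein-coding genes too: 10300 had one in Msx2-WT and 7701 in all 3 libraries. All 3 regions of both Msx2-KO libraries were intronic. By role, the receptors held 5 of the 9 regions of Msx2-WT alone, the ligands and the targets 2 each, and the nuclear complex genes none. The 5 shared regions away from any promoter had median ratios to Msx2-WT of 0.573 and 0.652, ranging from 0.369 to 2.16 and from 0.538 to 1.19, and none was past 2-fold in the same direction in both.

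**Figure D5:**
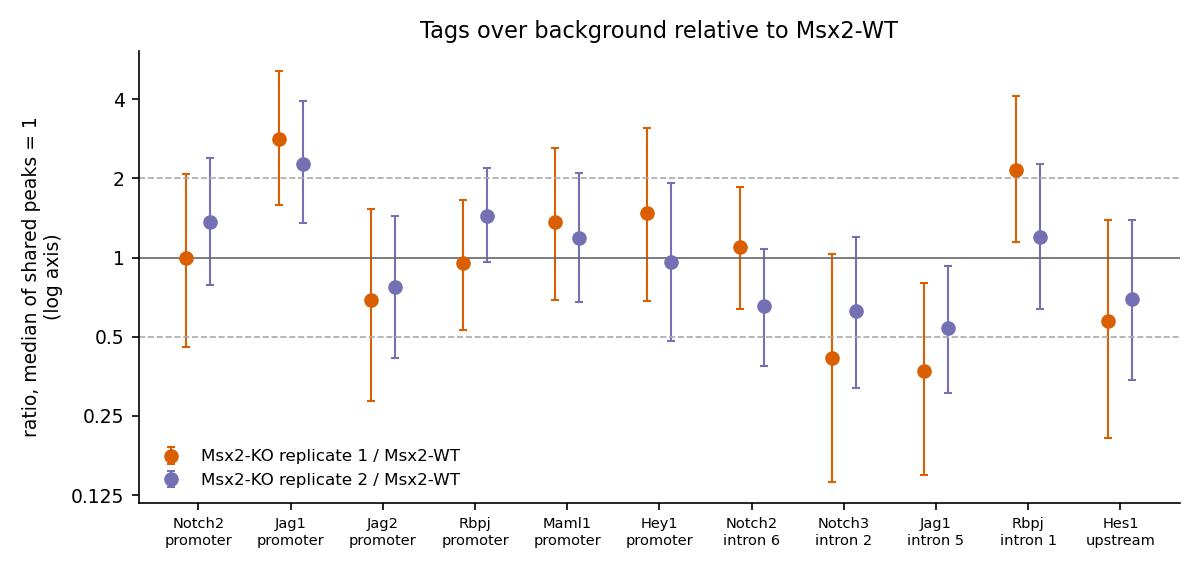
Ratio of tags over background to Msx2-WT for the 6 promoters and the 5 distal regions shared by all 3 libraries, on a log axis with 95% exact counting intervals; each ratio was divided by the median over all shared promoters or distal regions, drawn as the line at 1, and dashed lines mark 2-fold. Jag1 is the only item with both points beyond 2-fold, at its promoter, and its intron 5 region lies under 1 in both Msx2-KO libraries. The Rbpj promoter points compare summits at different positions.

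The letters GTGGGAA, the core bound by RBPJ, were searched on both strands within 100 bases of the strongest summit of each region. They were found in 4 of the 41 regions, or 9.76%, beside 4.64% of all 47562 regions. The 4 were the intron 6 region of Notch2, the intron 5 region of Jag1, a merged Rbpj intron region and the Hes1 promoter. The first 2 were shared distal regions, so the letters were found in regions of more than one class. The Rbpj region was called in both Msx2-KO libraries, but its letters lay within the Msx2-KO replicate 2 peak only. The replicate 1 peak ended before them, at chr5:53523206, and the Msx2-WT entry below the threshold held them. The AP-1 letters TGANTCA were found in 5 regions, or 12.2% beside 12.0%, and the homeobox letters TAATTG in 2, or 4.88% beside 7.29%. Both regions with the homeobox letters, in Notch1 intron 2 and Notch2 intron 1, were found in Msx2-KO replicate 2 alone. In the RefSeq promoter table of GRCm38.p6, 8 of the 10 genes were matched, not Hes1 and Hey1, with 10 entries. None of these entries held GTGGGAA in the 250 bases before the start, beside 5.42% of 32851 promoters. With capitals on the RBPJ letters or their reverse complement, 3 of the 4 regions read as follows on the strand of the gene in GRCm38.
Notch2 intron 6, chr3:98098712-98098912, plus strand: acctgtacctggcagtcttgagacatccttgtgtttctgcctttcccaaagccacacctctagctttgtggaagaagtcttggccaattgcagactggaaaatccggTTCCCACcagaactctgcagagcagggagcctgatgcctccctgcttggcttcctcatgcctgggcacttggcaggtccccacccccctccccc
Jag1 intron 5, chr2:137098342-137098542, minus strand: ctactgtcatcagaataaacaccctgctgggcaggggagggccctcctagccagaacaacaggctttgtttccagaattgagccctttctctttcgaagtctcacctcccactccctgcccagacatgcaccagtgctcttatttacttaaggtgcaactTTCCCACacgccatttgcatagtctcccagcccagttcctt
Rbpj intron 1, chr5:53523190-53523390, plus strand: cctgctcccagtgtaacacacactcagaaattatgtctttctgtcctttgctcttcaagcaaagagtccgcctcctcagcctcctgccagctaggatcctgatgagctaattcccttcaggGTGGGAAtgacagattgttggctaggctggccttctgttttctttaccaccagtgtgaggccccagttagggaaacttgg
A match is a description of the letters and not of binding.

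Of 45 other Notch pathway genes, listed by role, 26 had a promoter peak in Msx2-WT, against 23 and 31 in the Msx2-KO replicates. In all 3 libraries 20 had one, and 13 had none in any. The 10 genes for the proteases that cut Notch and their partners, such as Adam10, Adam17 and the γ-secretase genes, had promoter peaks at 10, 8 and 10 of them. Receptors and ligands of this list mostly had no promoter peak: Notch4, Dll3, Dll4 and Dlk1 had none, and neither had the targets Hes5, Hes7 and Heyl or the fringe genes Lfng and Mfng. Notch4 and Dll4 are best known from endothelium, of whose 4 marker genes only Kdr had a promoter peak, in Msx2-KO replicate 2.

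The promoter state separated Msx2-WT from both Msx2-KO libraries at 4 of these 45 genes. At 3 the peak was found in each Msx2-KO library but was not called in Msx2-WT, a state of 2.32% of all protein-coding genes, and at 1 it was in Msx2-WT alone, a state of 2.11%. With the libraries thinned to the lowest background, Msx2-WT kept 17 of its 26 promoter peaks, and these states held 6 and 0 of the 45 genes, beside 10.6% and 1.39%. Kat2b, a histone acetyltransferase gene, had 9 and 12 tags in the Msx2-KO libraries and 10 tags below the threshold in Msx2-WT. Poglut1, whose product adds O-glucose to Notch receptors, had 8 and 11 tags and no entry in Msx2-WT. Dtx3, of the Deltex family, had 8 and 12 tags and no entry in Msx2-WT. Dlk2, a non-canonical ligand gene, had 11 tags in Msx2-WT, no entry in Msx2-KO replicate 1 and 5 tags below the threshold in Msx2-KO replicate 2. Over the 20 promoters of this list that were open in all 3 libraries, the median ratios to Msx2-WT were 0.733 and 0.896, beside 1.18 and 1.28 over the 6 Notch pathway promoters. None of the 20 was past 2-fold higher or lower in both Msx2-KO libraries.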

How the data were processed

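Per the labels and the study's methods, reads were trimmed with Trimmomatic, aligned to GRCm38 with BWA-MEM and stripped of mitochondrial reads, and peaks were called in each library with MACS2 without a shifting model, with a shift size of 100 and an extension size of 200, keeping duplicates. The authors deposited 1 peak list per library with a fold enrichment over the local background and −log10 p and −log10 q values for each summit. The lists reach a p-value of 0.01, so a −log10 q above 2 was required here. From these the whole number of tags at each summit was worked out, with a solution for 99.96% to 99.99% of summits, and the method was tested on simulated data. The commonest background of a library stood for its depth, since the lists give no read totals.

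Windows and start sites came from the basic GENCODE M21 annotation. Window starts follow the outermost transcript, which for Notch1, Dll1, Rbpj and Hes1 lies before the main coding start. Positions of regions in introns and exons use all transcripts. Peaks sharing at least 1 base were merged. Samples were grouped by the labels, and no p-value was computed. The genes named were the 10 Notch pathway genes, those of the 45 others whose promoter state separated Msx2-WT from both Msx2-KO libraries, the strongest shared distal region of each gene and every region of one genotype alone. The genes and lists were chosen with earlier results of these data known. Alternatives were other thresholds, windows, overlaps, folds and depths. Scripts ran under Python 3.11.15 with scipy 1.17.1, pandas 2.3.3, numpy 2.4.6 and matplotlib 3.10.9.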

Additional observations from a re-analysis of the deposited data

How the results depend on the processing

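Under a stricter −log10 q minimum of 5, the 10 windows held 8 and 20 peaks in Msx2-KO replicates 1 and 2, 13 of the 45 other genes had a promoter peak in Msx2-KO replicate 1, and 0 regions of both Msx2-KO libraries and 5 of Msx2-WT alone were left. With every deposited peak, the windows held 49, 27 and 55 peaks, with 19 regions in all 3 libraries, 17 in Msx2-WT alone and 10 shared by Msx2-WT with Msx2-KO replicate 2 only. Lists of equal length left 20, 16 and 19 peaks in Msx2-WT and Msx2-KO replicates 1 and 2, 1 region of both Msx2-KO libraries, 4 of Msx2-WT alone and 2 shared by Msx2-WT with Msx2-KO replicate 2. With libraries thinned to the lowest background, Msx2-WT kept 13 peaks, beside 16 and 27 in the Msx2-KO replicates, 3 promoter peaks of the 10 genes and 17 of the 45, and there were 6 regions of both Msx2-KO libraries, 2 of Msx2-WT alone and 1 of Msx2-WT and Msx2-KO replicate 2. By 50% reciprocal overlap, 16 regions fell to Msx2-WT alone and 2 to Msx2-WT and Msx2-KO replicate 2. Shares over all regions are not given for these settings, so the region counts have no background beside them.

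Without one Msx2-KO library or the other, 13 to 17 regions were found in all remaining libraries, 3 to 14 in Msx2-KO and not Msx2-WT, and 10 to 14 in Msx2-WT alone. The higher value of 14 for Msx2-KO came without replicate 1, and that for Msx2-WT without replicate 2. Jag1 stayed the 1 promoter past 2-fold higher, and 0 were lower, without either library. No promoter, 0, passed 2-fold higher by the deposited fold, and 3 did without division by the median. The RBPJ letters were found in 7 regions within 150 bases of the summit, or 17.1% beside 6.94% of all regions. Within 50 bases the AP-1 letters were found in 3, or 7.32% beside 6.88%, and the homeobox letters in 0, beside 3.88%. The window starting from the basic coding start was chosen after seeing the data and gave 26, 12 and 24 peaks. The number of tags limits what can be called, above all in Msx2-KO replicate 1. No paired analysis was possible because the genotypes share only replicate number 1.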
